A study of Mus musculus with 20 samples.

Results

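Obox5 and Obox7 encode oocyte-specific homeobox proteins, and these 2 were the Obox genes with a number in their symbol that were listed in both expression tables of mouse oocytes resuming meiosis. They were picked by symbol, with earlier results of these data known, out of 8114 genes listed in either table and 7346 listed in both. The study followed denuded oocytes of C57BL/6 females from ribosome-bound mRNA and total RNA at 5 times of culture without cilostamide, which holds oocytes in prophase I by blocking a phosphodiesterase. All females were 3 weeks old, carried Zp3-Cre and the RiboTag allele, which puts an HA tag on a ribosomal protein in growing oocytes, and had received 5 IU of PMSG 44 h before collection. The groups were ribosome-bound mRNA at 0, 2, 4, 6 and 8 h and total RNA at 0, 2, 4, 6 and 8 h, with 2 libraries in each and 200 oocytes per sample. By the study's staging these times ran from prophase I through early, mid and late prometaphase I to metaphase I. Cre is driven by an oocyte promoter, so the tag marks oocyte ribosomes, whereas total RNA holds that of every cell collected.

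The Obox genes are a rodent expansion of paired-like homeobox genes. In mouse, the maternal members, Obox5 and Obox7 among them, are stored in the oocyte as transcripts, and embryos that lack maternal and zygotic Obox genes fail in zygotic genome activation, the first broad transcription of the embryo. Fully grown oocytes hardly transcribe, so a stored mRNA can change its share on ribosomes without any new RNA. In oocyte mRNAs, U-rich cytoplasmic polyadenylation elements (CPEs) near a poly(A) signal are known sites at which tail length and translation are set during maturation.

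Both genes lie on the plus strand of mouse chromosome 7 (GRCm38, GENCODE vM21). Obox5 (ENSMUSG00000074366.9) spans chr7:15750131-15759800 and Obox7 (ENSMUSG00000055942.13) spans chr7:14659496-14665996. Their transcripts with the longest 3′ UTR each have 4 exons, with 1831 bases for Obox5 and 1476 bases for Obox7. The coding parts have 876 bases in Obox5 and 657 bases in Obox7, and 630 of 657 aligned coding bases were identical (95.9%). Obox1, Obox2, Obox3, Obox6 and Obox8, which the same annotation places on chromosome 7, were not analysed here. The family is so alike that reads can be shared: 13.02% of the 50-base windows of Obox5 and 20.2% of those of Obox7 also occurred in a transcript of another gene. At 100 bases the shares were 0.115% for Obox5 and 2.69% for Obox7, in both cases with the other of the pair. The sources used here do not say how such reads were counted, so the split of reads between family members is uncertain.

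The 3′ UTR windows are shown because they hold the CPE-like motif of each gene that lies closest before a poly(A) signal. They come from exonic 3′ UTR sequence of GENCODE vM21, with TTTTAT in capitals, at chr7:15759201-15759230 for Obox5 and chr7:14665931-14665960 for Obox7, plus strand.
Obox5: agcctattatttTTTTATtgttagagtata
Obox7: gctattaattttTTTTATtgttagagaata
Position by position, 21 of these 30 bases were identical, and in both genes 17 bases separated TTTTAT from the next poly(A)-signal-like ATTAAA. In Obox7 this pair of motifs stood at the annotated 3′ end, with 48 bases after TTTTAT. In Obox5 the same pair stood inside a longer 3′ UTR, 582 bases before the annotated end. Nearer that end Obox5 held AATAAA with 36 and with 23 bases after it. The closest CPE-like motif before the first of these lay 468 bases away. The search covered TTTTAT and TTTTAAT as CPE-like motifs and AATAAA and ATTAAA as poly(A)-signal-like motifs, on the transcript strand, in 3′ UTRs of 803 bases for Obox5 and 489 bases for Obox7. Obox5 held 3 TTTTAT and 1 TTTTAAT, and Obox7 held 1 TTTTAT. A CPE-like motif is common: 67.9% of 7749 listed genes with an annotated 3′ UTR held one, and so did 52.0% of the 2876 genes whose 3′ UTR had 245 to 1204 bases. In the last 100 bases, where Obox7 but not Obox5 held one, the share of the 7749 genes was 20.8%. A motif match is a description of the letters and was not tied to any measured tail or factor.

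**Figure D1:**
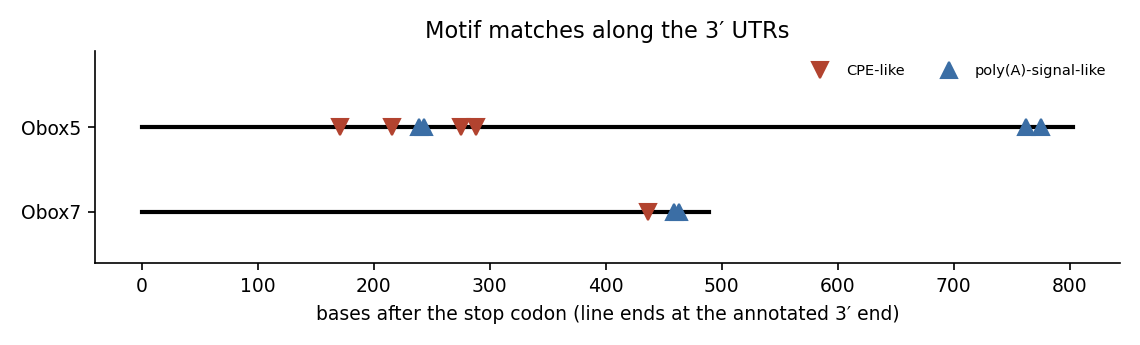
CPE-like motifs (downward triangles) and poly(A)-signal-like motifs (upward triangles) along the annotated 3′ UTRs of Obox5 and Obox7, in bases after the stop codon; each line ends at the annotated 3′ end. Obox5 has 4 CPE-like matches in 803 bases and Obox7 has 1 in 489 bases. In both a CPE-like match is followed by a close poly(A)-signal-like match, which lies near the annotated 3′ end in Obox7 only.

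The values are scaled CPM, read counts brought to a like total in every library. They give a level relative to the rest of each library and not an amount per oocyte. A change in RNA per oocyte and a change in the rest of the library therefore cannot be told apart. Depth inferred from the step of 1 read ran from 27571236 to 51714900 reads in listed genes per library. At that depth Obox5 rested on 6962 to 57372 reads per library and Obox7 on 2405 to 15802. Replicates correlated across genes with r of 0.949 to 0.975. The labels do not say whether the 2 libraries of a group came from separate females, so p-values measure the spread between these libraries, which may be technical. All 11 oocyte markers were listed in both tables. Of 16 granulosa and cumulus markers, 3 were listed on ribosomes (Cyp19a1, Fshr and Serpine2) and 6 in total RNA. Of 16 blood, stroma and endothelium markers, 2 were listed in each table (Pecam1 and Tek). On the second principal component of the ribosome-bound table, 4 h replicate 1 lay at 35.2 and the next library at 4.88, so results at 4 h are also given without it. In total RNA the 2 libraries at 8 h lay at opposite ends of the second component, at -20.2 and 25.01.

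Ribosome-bound Obox5 was several-fold higher at 4, 6 and 8 h than at 0 h. Its scaled CPM on ribosomes was 165 and 279 at 0 h, 362 and 380 at 2 h, 1116 and 779 at 4 h, 1150 and 1295 at 6 h, and 1325 and 1333 at 8 h. All 6 libraries from 4 h on lay above all 4 libraries of 0 and 2 h. The share of all genes separated in this way was not counted. The 0 h replicates were the least alike in relative terms. In limma, Obox5 rose at 4 h by a log2 of 2.11 (SE 0.20, adjusted p = 2.95e-06), at 6 h by 2.50 (SE 0.20, adjusted p = 1.15e-07) and at 8 h by 2.63 (SE 0.20, adjusted p = 3.42e-08). The last is 6.17-fold, with a 95% interval of 4.61 to 8.25, and Obox5 ranked 11 of the 7543 genes tested by log2 change at 8 h. At 2 h the log2 change was 0.79 (SE 0.20, adjusted p = 0.0566), which missed the threshold of 0.05.

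Ribosome-bound Obox7 also rose at 4, 6 and 8 h, at a lower level than Obox5. Its scaled CPM on ribosomes was 70.5 and 85.3 at 0 h, 144 and 123 at 2 h, 366 and 262 at 4 h, 276 and 357 at 6 h, and 360 and 353 at 8 h. No library from 4 h on overlapped with any of 0 or 2 h, and the 2 h libraries lay above those of 0 h. The share of all genes with such separations was not counted for Obox7 either. The log2 change of Obox7 on ribosomes was 0.77 at 2 h (SE 0.19, adjusted p = 0.0481), 1.98 at 4 h (SE 0.19, adjusted p = 2.95e-06), 2.00 at 6 h (SE 0.19, adjusted p = 7.86e-07) and 2.18 at 8 h (SE 0.19, adjusted p = 1.36e-07). At 8 h it rose 4.55-fold, with a 95% interval of 3.45 to 5.98, and it ranked 61 by log2 change. The 95% intervals of both genes overlapped at every time, and the difference between their changes was not tested.

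These calls stood against a background in which many genes rose late and few early. Of the 7543 genes on ribosomes, 0.729% were called higher at 2 h than at 0 h, 9.16% at 4 h, 14.6% at 6 h and 20.2% at 8 h. Without 4 h replicate 1 the count at 4 h was 277 genes, against 691 with it. Of the Obox genes, 1 of 2 was called at 2 h (Obox7) and both at 4, 6 and 8 h. Without 4 h replicate 1, the 4 h log2 change was 1.85 for Obox5 (adjusted p = 0.000416) and 1.74 for Obox7 (adjusted p = 0.000412). The 2 h change of Obox7 missed the threshold without 0 h replicate 1 (0.64, adjusted p = 0.127), without 2 h replicate 1 (0.66, adjusted p = 0.352), without 2 h replicate 2 (0.88, adjusted p = 0.205) and with the replicate letter as a block (0.77, adjusted p = 0.0766). That of Obox5 passed without 0 h replicate 2, at 1.16 (adjusted p = 0.00304), and was 0.41 without 0 h replicate 1.

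Serpine2, Cyp19a1 and Fshr, markers of granulosa and cumulus cells, summed to 463 to 476 scaled CPM on ribosomes at 8 h, against 140 to 169 at 0 h. Of these, Serpine2 (log2 1.74, adjusted p = 4.49e-07) and Cyp19a1 (1.31, adjusted p = 0.000189) rose on ribosomes at 8 h as Obox5 and Obox7 did, and Fshr changed by 0.61 (adjusted p = 0.28). The rest of that list, Foxl2, Amh and Inha among them, was not listed on ribosomes, and the part of such markers in the Obox result was not tested. The 11 oocyte markers summed to 24359 to 27857 scaled CPM on ribosomes at 8 h, against 45354 to 54229 at 0 h, and 2 of them rose and 9 fell (median log2 change -0.82). Since values are relative to the rest of a library, this fall in abundant transcripts stands beside the Obox rise, and its part in that rise was not tested. The sum of Pecam1 and Tek, markers of endothelium, was 106 to 162 scaled CPM at 8 h, against 155 to 189 at 0 h, and neither was called.

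**Figure D2:**
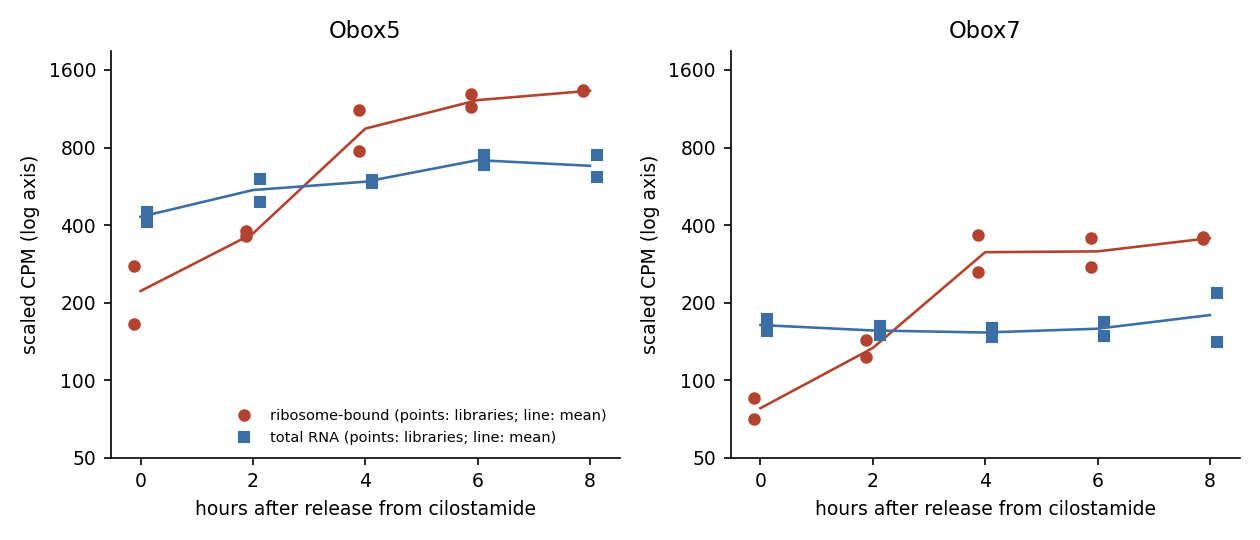
Scaled CPM (log axis) of Obox5 and Obox7 by hours after release from cilostamide; points are libraries, lines join the means of 2 libraries, circles are ribosome-bound mRNA and squares total RNA, whose tables were scaled separately. On ribosomes Obox5 lies at 1325 and 1333 at 8 h, against 165 and 279 at 0 h, whereas total Obox7 lies at 140 to 218 throughout.

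Between neighbouring times on ribosomes, the log2 change at 2 h against 0 h was 0.79 for Obox5 and 0.77 for Obox7, of which that of Obox7 was called. At 4 h against 2 h, Obox5 rose by a log2 of 1.33 (SE 0.20, adjusted p = 0.00498) and Obox7 by 1.21 (SE 0.19, adjusted p = 0.00536), while 0.703% of all genes were called higher in that interval. Both calls were lost without 4 h replicate 1 (1.07 for Obox5, adjusted p = 0.216, and 0.97 for Obox7, adjusted p = 0.218), and also when either 2 h library was left out. At 6 h against 4 h, the log2 change was 0.39 for Obox5 (95% interval -0.03 to 0.81, adjusted p = 0.484) and 0.02 for Obox7 (-0.38 to 0.41, adjusted p = 0.984). At 8 h against 6 h, it was 0.12 for Obox5 (-0.30 to 0.54, adjusted p = 0.856) and 0.18 for Obox7 (-0.21 to 0.58, adjusted p = 0.754). The differences between these steps were not tested. Neither gene was called in the later intervals, in which 0.0663% (6 h against 4 h) and 0.0928% (8 h against 6 h) of all genes were called higher.

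In total RNA, Obox5 was modestly higher late and Obox7 was not called at any time. Obox5 had 450 and 412 scaled CPM in total RNA at 0 h, 491 and 603 at 2 h, 583 and 596 at 4 h, 682 and 747 at 6 h, and 746 and 614 at 8 h. Both 0 h libraries were the lowest of the 10, and the share of all genes of which this holds was not counted. The total RNA change of Obox5 was a log2 of 0.34 at 2 h (adjusted p = 1.00) and 0.45 at 4 h (adjusted p = 0.998), and it rose by 0.73 at 6 h (SE 0.13, adjusted p = 0.0205) and by 0.65 at 8 h (SE 0.13, adjusted p = 0.00765). The calls of Obox5 in total RNA were fragile: at 6 h the call was lost without any 1 of the 4 libraries compared. At 8 h it was lost without 0 h replicate 1 (0.72, adjusted p = 0.0681), 0 h replicate 2 (0.59, adjusted p = 0.0937) or 8 h replicate 1 (0.51, adjusted p = 0.109).

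In total RNA the 6 granulosa and cumulus markers listed summed to 374 to 479 scaled CPM at 8 h, against 240 to 301 at 0 h. Of these only Serpine2 was called, higher at 8 h by a log2 of 0.78 (adjusted p = 0.00498). The higher sum was not shared by most of the list, whose median log2 change was -0.086. Cyp19a1 changed by 0.24, whereas Fshr changed by -0.13, Gja1 by -0.46, Inha by -0.04 and Inhba by -0.998. The part of these markers in the Obox5 result was not tested.

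Obox7 had 173 and 155 scaled CPM in total RNA at 0 h, 162 and 150 at 2 h, 159 and 148 at 4 h, 149 and 168 at 6 h, and 218 and 140 at 8 h. The groups overlapped, with 8 h replicate 1 the highest of the 10 libraries and 8 h replicate 2 the lowest. The log2 change of Obox7 in total RNA lay between -0.09 and 0.10, and at 8 h its 95% interval ran from -0.29 to 0.48 (adjusted p = 0.83). Of 7917 genes in total RNA, 0.177% were called higher at 6 h than at 0 h and 0.947% at 8 h, and at 8 h 75 genes were higher and 239 lower. At 2 h (0.00%) and 4 h (0.00%) limma called no gene, with 107 and 195 genes higher at an unadjusted p under 0.05.

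The change of Obox5 and Obox7 on ribosomes was larger than that in total RNA from 4 h on. For Obox5 the ribosome-bound change exceeded the total RNA change by a log2 of 0.45 at 2 h (SE 0.26, adjusted p = 0.564), 1.66 at 4 h (SE 0.26, adjusted p = 0.000401), 1.77 at 6 h (SE 0.26, adjusted p = 5.73e-05) and 1.97 at 8 h (SE 0.26, adjusted p = 7.51e-06). For Obox7 the excess was 0.84 at 2 h (SE 0.27, adjusted p = 0.242), 2.08 at 4 h (SE 0.27, adjusted p = 7.76e-05), 2.05 at 6 h (SE 0.27, adjusted p = 1.91e-05) and 2.09 at 8 h (SE 0.27, adjusted p = 7.54e-06). Of 7346 genes in both tables, 0.0136% were called higher by this interaction test at 2 h, 3.09% at 4 h, 7.34% at 6 h and 11.6% at 8 h. Both Obox genes were called at 4, 6 and 8 h, and neither at 2 h. These calls kept their side of the threshold when any 1 library was left out, with log2 values of 1.29 to 2.35 for Obox5 and 1.77 to 2.41 for Obox7.

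**Figure D3:**
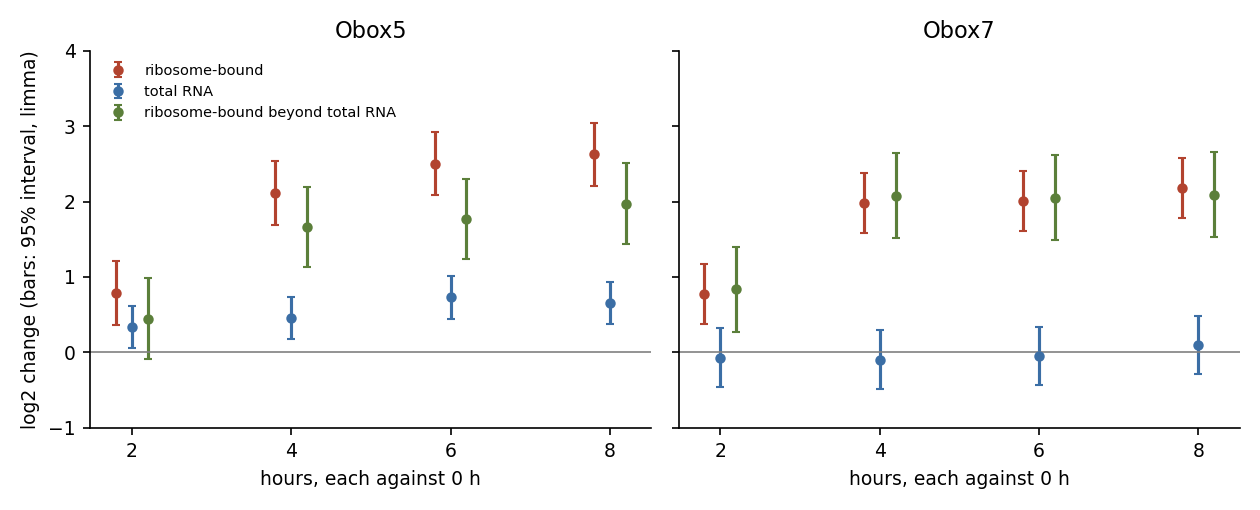
Log2 change of Obox5 and Obox7 at 2, 4, 6 and 8 h, each against 0 h, on ribosomes, in total RNA, and on ribosomes beyond total RNA; bars are 95% intervals from limma. From 4 h on the ribosome-bound intervals of both genes start at 1.59 or above, and every total RNA interval of Obox7 spans 0.

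Set side by side, the mean level of Obox5 on ribosomes over that in total RNA was 0.515 at 0 h, 0.678 at 2 h, 1.61 at 4 h, 1.71 at 6 h and 1.96 at 8 h. For Obox7 this ratio was 0.475 at 0 h, 0.855 at 2 h, 2.05 at 4 h, 2.00 at 6 h and 1.99 at 8 h. Since the tables were scaled separately, only the course of these ratios can be read, not where they cross 1. For Nobox, a homeobox factor of early follicle growth, the ratio was lower late, with 0.517 at 8 h, against 0.803 at 0 h. The limma interaction test did not call this difference for Nobox at 8 h (log2 -0.59, adjusted p = 0.118).

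Per kb of transcript, Obox5 stood above Obox7 in both kinds of RNA at every time. On ribosomes at 8 h the mean level was 726 scaled CPM per kb for Obox5 and 241 for Obox7, at places 46 and 164 of 7257 genes with an annotated transcript. At 0 h the levels on ribosomes were 121 and 52.8 scaled CPM per kb, at places 427 and 1199. In total RNA at 8 h they were 371 and 121 scaled CPM per kb, at places 81 and 424 of 7575 genes, against 235 and 111 at 0 h, at places 156 and 474. In every library Obox5 exceeded Obox7 in scaled CPM, by 2.34 to 4.17 times on ribosomes and by 2.60 to 4.59 times in total RNA. On ribosomes this ratio was 2.34 to 3.27 in the 6 libraries of 0, 2 and 4 h and 3.63 to 4.17 in the 4 libraries of 6 and 8 h. This difference was neither planned nor tested. In total RNA the ratio did not split in this way. There it was 2.60 to 2.66 at 0 h, 3.03 to 4.02 at 2 h, 3.67 to 4.04 at 4 h, 4.43 to 4.59 at 6 h and 3.42 to 4.37 at 8 h.

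The genes whose course was most like that of each Obox gene were sought by Pearson correlation of log2 values over the 10 libraries of a table, a description with no test since the libraries share the time course. On ribosomes Obox5 and Obox7 had r = 0.984 with each other. Among 5324 genes with a mean of at least 20, 9 genes were closer to Obox5 and 1 was closer to Obox7. Closest to Obox5 were Tex19.1 (r = 0.994), which restrains transposons in germ cells, the RNA-binding protein gene Sfpq (0.991), the histone chaperone gene Nap1l1 (0.990), the histone-binding protein gene Rbbp7 (0.988) and Ctnna1 (0.987), which encodes an alpha-catenin. Closest to Obox7 were Dennd4c (0.986), the formin gene Daam1 (0.984), Zfp735 (0.982), the translesion polymerase gene Rev1 (0.981) and Mastl (0.981), the Greatwall kinase of M phase.

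Their rises differed in size. At 8 h against 0 h on ribosomes, the log2 change was 2.40 for Tex19.1 and 2.21 for Rbbp7, close to those of the Obox genes, and 0.84 for Mastl. Tex19.1 had 200 and 202 scaled CPM on ribosomes at 8 h, against 27.4 and 50.3 at 0 h. These groups of Tex19.1 did not overlap, and the share of all genes of which this holds was not counted.

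In total RNA Obox5 and Obox7 no longer went together, with r = 0.248 over the 10 libraries. Of 5683 genes ranked, 1743 were closer to Obox5 than Obox7 was. Obox5 was closest to Oosp1 (r = 0.971), an oocyte-secreted protein gene, and then to Gle1, Znrf2, Bod1 and Smco4. Oosp1 had 829 and 708 scaled CPM in total RNA at 8 h, against 466 and 451 at 0 h, which is a rise by a log2 of 0.74 (adjusted p = 0.00235), and on ribosomes its log2 change was 2.62 at 8 h (adjusted p = 2.72e-09). Obox7 was closest in total RNA to Sdk1 (r = 0.947), followed by BC048403, Adam9, Ube2e3 and Tubgcp5. Sdk1 had 109 and 49.5 scaled CPM in total RNA at 8 h, against 61.4 and 56.1 at 0 h, so the high library was again 8 h replicate 1.

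Each of the other homeobox genes measured changed less on ribosomes than Obox5 and Obox7 did, by log2 change at 8 h. Of 77 genes on that list, 24 were measured on ribosomes, of which 5 rose and 2 fell at 8 h against 0 h, with a median log2 change of 0.17. The number that rose was 2 without 0 h replicate 2 or 8 h replicate 1, and the number that fell was 1 without 0 h replicate 1. Over all 7543 genes 1525 rose and 1648 fell, with a median of -0.06, and with libraries centred on their medians 1677 rose and 1487 fell. Those that rose included Cers6 (log2 1.20, adjusted p = 3.20e-06) and Cers2 (1.07, adjusted p = 0.00439), ceramide synthases with a homeobox-like domain, and the paired-like Otx1 (1.35, adjusted p = 0.00767). Lhx8 (log2 -1.35, adjusted p = 3.76e-06) and Nobox (-0.84, adjusted p = 0.00336), both oocyte factors of the growing follicle, fell. Nobox had 258 and 263 scaled CPM on ribosomes at 8 h, against 594 and 365 at 0 h, and 533 and 475 in total RNA at 8 h, against 581 and 614 at 0 h. Its groups did not overlap in either table, yet its total RNA change of -0.25 missed the threshold (adjusted p = 0.363). The share of all genes separated in this way was not counted. Of 25 list members in total RNA, none was called at 8 h by limma.

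**Figure D4:**
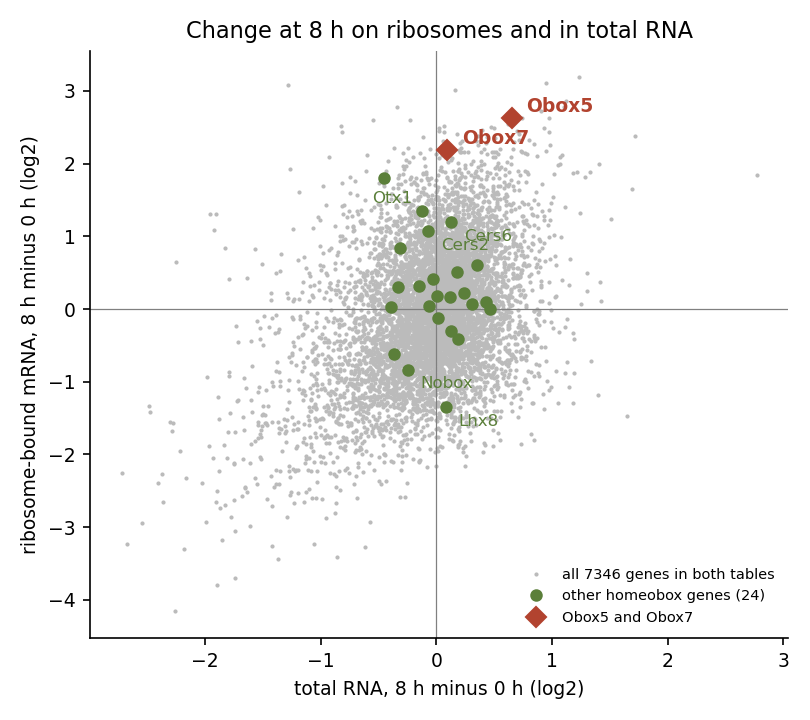
Log2 change at 8 h against 0 h on ribosomes (vertical) and in total RNA (horizontal) for the 7346 genes in both tables (grey), 24 other homeobox genes (green) and Obox5 and Obox7 (red). Obox5 (2.63 on ribosomes, 0.65 in total RNA) and Obox7 (2.18 and 0.10) lie above all 24 other homeobox genes on the vertical axis.

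Of 42 other factors tied to genome activation, 32 were measured on ribosomes. At 8 h against 0 h, 8 of these rose and 8 fell, with a median log2 change of 0.19. Over all 7543 genes 1525 rose and 1648 fell in that comparison. Nfyb, a subunit of the CCAAT-binding factor NF-Y, rose by 2.08 (adjusted p = 0.00118), close to Obox7 in size but at a low level. It had 14.3 and 14.3 scaled CPM at 8 h, against 2.49 and 2.77 at 0 h. Every listed gene reached at least 10.33 in some library, so Nfyb was listed through its later libraries and not those of 0 h. Ctcf, a chromatin insulator protein gene, rose by 1.10 (adjusted p = 0.000137) and Sall4, a zinc-finger factor gene, by 0.75 (adjusted p = 0.00119). Zar1, which encodes an RNA-binding protein of oocytes, fell to 578 and 686 scaled CPM at 8 h, against 1740 and 1602 at 0 h (log2 -1.40, adjusted p = 3.45e-06). Kdm1b, a histone demethylase gene needed for maternal imprints (-1.30, adjusted p = 2.06e-06), and the ubiquitin ligase gene Rnf114 (-1.06, adjusted p = 1.41e-05) fell too. In total RNA 0 of these 32 genes rose and 2 fell at 8 h, where 75 of all 7917 genes rose and 239 fell.

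On ribosomes at 8 h against 0 h, 1525 of all 7543 genes rose and 1648 fell. Of 26 oocyte transcription factors, 20 were measured there, of which 5 rose and 3 fell, with a median log2 change of 0.34. Without 8 h replicate 2 the number that rose was 3. The general factor gene Tbp rose by 1.24 (adjusted p = 0.000278), the imprint-keeping Zfp57 by 0.72 (adjusted p = 0.000235) and Trps1 by 0.58 (adjusted p = 0.00374). Figla, a factor of primordial follicle formation, fell to 2.39 and 3.51 scaled CPM at 8 h, against 13.4 and 19.6 at 0 h (log2 -2.14, adjusted p = 0.00337). Its 8 h values lay below 10.33, the lowest maximum of a listed gene, so Figla was listed through its earlier libraries. Lhx8 and Nobox are on this list too. Of 18 members in total RNA, none was called at 8 h by limma. Neither list held a gene with a change on ribosomes as large as that of Obox5.

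**Figure D5:**
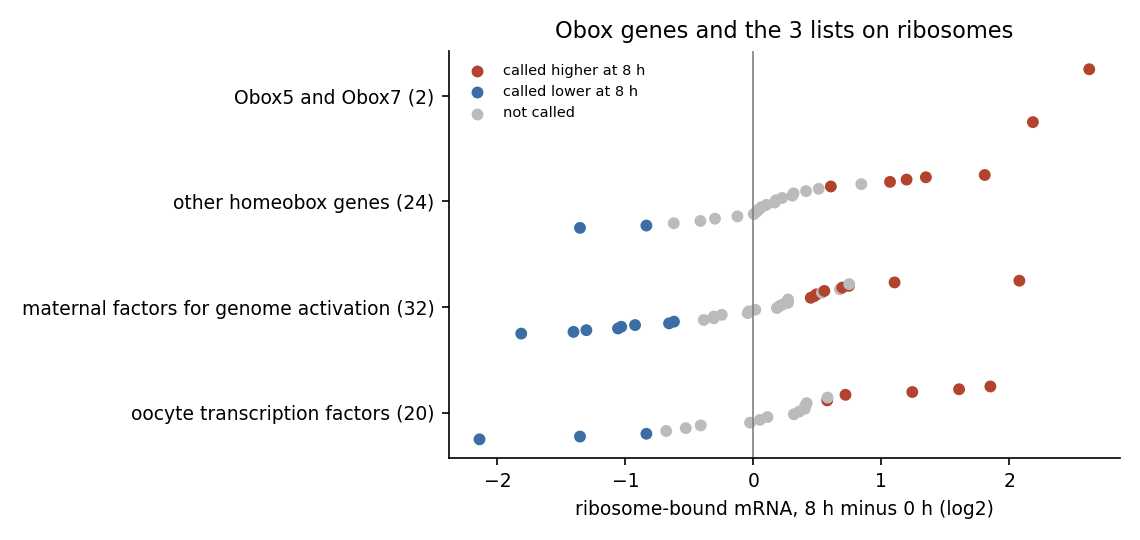
Log2 change on ribosomes at 8 h against 0 h for Obox5 and Obox7 and for 3 gene lists, 1 point per gene, coloured by whether limma called it higher, lower or not. Obox5 (2.63) and Obox7 (2.18) lie to the right of every gene of the 3 lists, the nearest being Nfyb (2.08), which was listed through its later libraries.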

How the data were processed

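Ribosome-bound mRNA and total RNA were measured in 20 libraries of mouse oocytes. Per the submitters' processing notes, the authors' tools were HTSeq for counting, HISAT2 for alignment to mm10, Trimmomatic 0.36, FastQC, SAMtools, limma and edgeR. The authors deposited 1 table per RNA kind with a signal per gene in scaled CPM, listing only genes above a minimum. Library totals ran from 968768 to 1052767, so the values are not the plain CPM that had been assumed; they were tested on the log2 scale all the same. Values were whole multiples of 1 step per library, and depth was inferred from it (27571236 to 51714900 reads); a count test on such reads was not run. In the description field, total RNA samples too are called ribosome-bound; their titles and the series design, which name input or total RNA, were followed. No source used here says whether poly(A) RNA was selected or strand kept, so recovery could depend on tail length in either kind of library; this was not tested.

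Groups came from the titles, whose letters A and B became replicates 1 and 2. A pseudocount of 1 was added before taking log2, and a fold change is on that scale. A filter of a value of 1 in 2 or more libraries removed no gene (7543 and 7917 genes). Each table was fitted in limma 3.58.1 under R 4.3.3 with time as a factor, using its empirical Bayes step with a trend on the mean. For the excess of ribosome-bound over total RNA change, an RNA kind by time interaction was fitted to the 7346 shared genes. Two-sided p-values were adjusted by Benjamini and Hochberg over all genes of each comparison, with 0.05 as threshold. Other pseudocounts (5 and 0.1), filters (none, and a mean of at least 20), median centring, a replicate block and leaving out each library were tried.

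The Obox genes and all gene lists were chosen with earlier results of these data known. Named genes were all listed Obox genes, the 5 most correlated named genes per table among those with a mean of at least 20, up to 3 genes per list and direction with the smallest p at 8 h on ribosomes, and Nobox; Pou5f1 was not analysed here. Annotation was matched to GENCODE vM21 through gene IDs, of which 5839 matched with their version, 2264 without it and 11 not at all. For each gene the protein-coding transcript with the longest 3′ UTR was used. Identities were computed with Biopython 1.88 global alignments without end-gap penalties.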

Additional observations from a re-analysis of the deposited data

Results flagged for a closer look

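The change of both Obox genes against 0 h differed between the kinds of RNA, by the limma interaction of RNA kind and time. For Obox5 the ribosome-bound change exceeded that in total RNA by a log2 of 1.66 at 4 h, 1.77 at 6 h and 1.97 at 8 h. For Obox7 the excess at these times, in the same order, came to 2.08, 2.05 and 2.09.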

How the results depend on the processing

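The rises of Obox5 and Obox7 on ribosomes at 4, 6 and 8 h, and their excess over total RNA at those times, passed the threshold under every alternative run. With libraries left out in turn, the ribosome-bound log2 change against 0 h ran from 0.41 to 1.16 (2 h), 1.74 to 2.49 (4 h), 2.13 to 2.88 (6 h) and 2.25 to 3.0 (8 h) for Obox5, and from 0.64 to 0.91, 1.74 to 2.22, 1.82 to 2.19 and 2.05 to 2.32 for Obox7. The 2 h call of Obox5 was gained with a mean of at least 20 (0.79, adjusted p = 0.0337) and with median centring (0.83, adjusted p = 0.0395), and that of Obox7 was lost with the replicate block (0.77, adjusted p = 0.0766). Leaving out libraries gave 1.07 to 1.59 (Obox5) and 0.97 to 1.45 (Obox7) at 4 h against 2 h, 0.13 to 0.65 and -0.22 to 0.26 at 6 h against 4 h, and 0.04 to 0.21 and -0.0025 to 0.37 at 8 h against 6 h; among these, 6 h against 4 h of Obox7 was -0.17 without 6 h replicate 2. In total RNA it gave 0.66 to 0.79 at 6 h and 0.51 to 0.79 at 8 h for Obox5, and for Obox7 -0.15 to 0.011 at 2 h, -0.14 to 0.042 at 6 h (0.032 without 0 h replicate 1) and -0.22 to 0.41 at 8 h. The cause was not tested. Genes called higher on ribosomes against 0 h, 55 at 2 h in the reported fit, were 85 with a mean of at least 20, 18 with the block and 4 to 122 with libraries left out; at 4, 6 and 8 h, leaving out gave 277 to 613, 709 to 1003 and 1058 to 1404. At 4 h against 2 h the count was 33 with the block and 2 to 34 with libraries left out; at 6 h against 4 h it was 9, 2 and 0 to 1, and at 8 h against 6 h 11, 4 and 0 to 1, with the mean filter, the block and libraries left out, in that order. In total RNA leaving out gave 0 to 1 at 4 h, 0 to 11 at 6 h and 6 to 128 at 8 h, and beyond total RNA 0 to 16 at 2 h (4 with the mean filter), 105 to 252 at 4 h, 353 to 548 at 6 h and 620 to 827 at 8 h. Centring split the 2 h calls on ribosomes into 80 higher and 50 lower, against 55 and 56. Over lists on ribosomes at 8 h, leaving out gave 2 to 6 other homeobox genes higher and 1 to 3 lower, and 3 to 6 oocyte transcription factors higher. Same-letter libraries showed little shared deviation (correlations -0.11 to 0.05 on ribosomes, -0.06 to 0.13 in total RNA and -0.08 to 0.04 between them). This cannot settle whether the letters pair samples, since the spread of single libraries can hide a shared part. The reported fits took libraries as unpaired, and the block moved no other Obox call. Leaving out a library gives fewer samples, and the lone one left in a group is assumed to vary like the others. The planned count test was not run. With 2 libraries per group, their number limits the precision of these values.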
